A study of Mus musculus with 15 samples.

Results

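Crisp1, Lcn5, Lcn8, Lcn9, Lcn10, Cst8, Cst11, Adam7, Rnase9 and Rnase10 are genes best known from the epididymis, the duct that adjoins the testis, and their levels were read here in 15 mouse testis libraries. They are the 10 rows, of 23510 in the deposited table, whose Entrez gene IDs carry these symbols in RefSeq. The rule uses no measured value. The question put to them was whether epididymal transcripts accompany group differences in testis libraries, such as that of Crisp1.

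All mice came from ICR, an outbred stock, and each group held 3 libraries. Con was labelled as the control with no agent named, and MNC received the lentiviral vector control shNC. M1, M3 and M5 received lentivirus with shRNAs against the muscarinic acetylcholine receptor of that name. Per the study's methods, 3 shRNAs per receptor were mixed and injected into the testis at 5 weeks of age, and a testis was taken for RNA 10 days later. Nothing in the labels says whether a library came from 1 animal or a pool, so p-values measure the spread between these libraries, which may be in part technical. The titles name testis as the tissue while the extraction text speaks of sperm. Germ cell and somatic markers of the testis were high in all 15 libraries, with the protamine gene Prm1 at 2951 to 9026 FPKM and the Leydig cell hormone gene Insl3 at 488 to 2382 FPKM. FPKM is a fragment count divided by transcript length and by sequencing total, so levels of different genes are on a scale per length.

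Spermatozoa leave the testis immotile and mature as they pass the initial segment, caput, corpus and cauda of the epididymis. The epithelium of each segment secretes its own set of proteins, many of them under androgen control, including lipocalins that carry small lipophilic ligands, cystatins that resemble protease inhibitors, beta-defensins and secreted ribonuclease-like proteins. The initial segment and caput are known for Lcn8, Lcn9, Lcn10, Cst11 and Gpx5, while Crisp1 is a secreted protein that coats sperm and is made along much of the duct. Cst8 is known from germ cells of the testis as well as from the caput.

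The promoters below are shown because these 4 genes stand for the 2 orders of libraries described further on, Crisp1 and Rnase9 for one and Lcn9 and Lcn10 for the other. Each run is RefSeq sequence of GRCm38.p6, the assembly also named mm10 in the submitters' processing notes. It spans 250 bases before to 50 bases after an annotated start, 5′ to 3′ on the strand of the gene. For Lcn9 and Rnase9 this start lies inside the gene span given further on. Capitals mark AGAACA or its reverse complement TGTTCT, the core of an androgen response element. Crisp1 is at chr17:40319158-40319457 (minus strand), Rnase9 at chr14:51041818-51042117 (minus), Lcn9 at chr2:25822903-25823202 (plus) and Lcn10 at chr2:25682476-25682775 (plus).
Crisp1: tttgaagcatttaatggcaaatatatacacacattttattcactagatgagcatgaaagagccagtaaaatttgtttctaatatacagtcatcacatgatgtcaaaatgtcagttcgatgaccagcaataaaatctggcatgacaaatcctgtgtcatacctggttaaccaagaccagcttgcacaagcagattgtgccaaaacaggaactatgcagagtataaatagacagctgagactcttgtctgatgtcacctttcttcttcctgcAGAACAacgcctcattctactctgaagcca
Rnase9: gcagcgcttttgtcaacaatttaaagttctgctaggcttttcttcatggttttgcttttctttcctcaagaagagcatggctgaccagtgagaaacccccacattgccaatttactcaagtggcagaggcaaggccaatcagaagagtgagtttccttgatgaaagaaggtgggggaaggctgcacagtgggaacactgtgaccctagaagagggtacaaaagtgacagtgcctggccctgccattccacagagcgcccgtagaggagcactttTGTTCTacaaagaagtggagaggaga
Lcn9: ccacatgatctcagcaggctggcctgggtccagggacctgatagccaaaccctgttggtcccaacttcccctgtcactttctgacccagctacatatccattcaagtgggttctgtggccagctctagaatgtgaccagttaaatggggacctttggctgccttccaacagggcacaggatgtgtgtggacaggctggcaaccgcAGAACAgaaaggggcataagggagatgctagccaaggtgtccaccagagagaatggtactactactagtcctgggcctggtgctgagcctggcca
Lcn10: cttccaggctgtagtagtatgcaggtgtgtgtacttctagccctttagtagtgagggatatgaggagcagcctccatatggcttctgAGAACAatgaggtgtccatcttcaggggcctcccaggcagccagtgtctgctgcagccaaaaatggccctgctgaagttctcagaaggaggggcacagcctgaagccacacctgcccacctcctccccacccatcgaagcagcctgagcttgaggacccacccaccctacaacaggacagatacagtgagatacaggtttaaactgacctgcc
RefSeq gave promoters for 8 of the 10 genes, all but Adam7 and Cst11. The hexamer, read on both strands, was present in 5 of these 8 genes: the 4 shown and Rnase10. Of all 32851 promoters of the same 300 bases, 19.0% held it. Both orders of libraries are represented among the genes with a match, and Lcn5, Lcn8 and Cst8 had none in this window. A match is a string of letters only.

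Several of the genes lie in family clusters. On chromosome 2, Lcn8 (25653118 to 25656217), Lcn5 (25657932 to 25662230), Lcn10 (25682726 to 25686081) and Lcn9 (25823088 to 25825546) lie near each other, and farther along the chromosome lie Cst11 (148768618 to 148771497) and Cst8 (148798839 to 148805596). On chromosome 14 are Rnase10 (51007751 to 51010761), Rnase9 (51038459 to 51041903) and Adam7 (68497336 to 68533689), and Crisp1 is on chromosome 17 (40293758 to 40319207). No member overlaps another RefSeq gene. The coding sequence of Crisp1 is 735 bases long and 89.5% identical to that of Crisp3, with 5.99% of its runs of 35 bases shared, so reads could be divided between them. Crisp3 itself was at 0 to 0.09 FPKM in all libraries. Crisp2, the relative made by germ cells, was 68.5% identical to Crisp1 and shared no run of 35 bases.

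Crisp1 was the member with the widest spread on the log2(FPKM + 1) scale. It stood at 32.26, 2.86 and 12.15 FPKM in Con-1, Con-2 and Con-3, and at 19.40, 5.03 and 0.68 FPKM in M3-1, M3-2 and M3-3. It was at 0.03 FPKM in each of the 3 MNC libraries, at 0.09, 0.03 and 0.06 in M1 and at 0.12, 0.03 and 0.15 in M5. The 6 Con and M3 libraries therefore all lay above the other 9, and within Con and within M3 the highest library was many times the lowest.

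The low values of Crisp1 were multiples of 0.03 FPKM, the step that 1 fragment would give if these were whole fragments. On that scale each MNC library held about 1 fragment, the M1 and M5 libraries 1 to 5, and the Con libraries about 1075, 95 and 405. M3 held about 647, 168 and 23. Depth is unknown, and the step is read from rounded values. In bulk tissue, fewer cells of a type and less RNA per cell cannot be told apart.

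Rnase9, a ribonuclease-like protein that lacks the catalytic residues, followed the order of Crisp1. It was at 1.46, 0.22 and 0.80 FPKM in Con-1, Con-2 and Con-3 and at 1.26, 0.35 and 0.21 FPKM in M3-1, M3-2 and M3-3. MNC held 0, 0.04 and 0.10 FPKM, M1 held 0.04, 0.04 and 0.14, and M5 held 0, 0.07 and 0.04. Every Con and M3 library lay above the other 9, as for Crisp1.

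Adam7, a membrane protein of the ADAM family that the epididymis passes to sperm, was also present in Con and M3 but ranked the libraries differently. It was at 1.63, 6.83 and 1.29 FPKM in Con-1, Con-2 and Con-3 and at 1.71, 0.44 and 0.06 FPKM in M3-1, M3-2 and M3-3. The 9 libraries of MNC, M1 and M5 were listed at 0 to 0.02 FPKM. Con-2, the lowest Con library for Crisp1, was here the highest.

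The lipocalins were close to absent outside Con-2. Lcn10 was at 1.87 FPKM in Con-2 and 0.37 in Con-3, and was listed at 0 in the other 13 libraries. Lcn9 was at 1.36 FPKM in Con-2 and 0.10 in Con-3, was listed at 0 in Con-1, and reached at most 0.11 FPKM elsewhere. Lcn5, a carrier of retinoids, was at 0.40 FPKM and Lcn8 at 0.14 FPKM in Con-2, and both were listed at 0 in every other library. Con-1, with the most Crisp1, was thus listed at 0 for all 4 lipocalins.

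Of the cystatins, Cst11 had the same highest library. It was at 0.30, 5.22 and 0.75 FPKM in Con-1, Con-2 and Con-3, at 0.08, 0.08 and 0.22 in MNC and at 0, 0.16 and 0.15 in M1. In M3 it was at 0.08, 0 and 0.36 FPKM and in M5 at 1.12, 0.36 and 0.30 FPKM. M5-1 was the highest library outside Con-2, so that Cst11 did not share the division of Crisp1 into 6 and 9 libraries.

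Rnase10 and Cst8 were present in every library. Rnase10, a further ribonuclease-like protein, was at 2.32, 3.97 and 2.66 FPKM in Con, 1.34, 2.06 and 1.34 in MNC and 2.50, 2.81 and 1.91 in M1. It was at 3.00, 2.38 and 3.71 FPKM in M3 and 2.41, 2.70 and 2.71 in M5, and Con-2 was again the highest library, while MNC held the lowest values. Cst8 was the most abundant member, at 165.68, 168.46 and 217.16 FPKM in Con and at 223.75, 222.78 and 250.23 in MNC. M1 held 244.07, 270.17 and 274.69 FPKM of it, M3 297.96, 241.01 and 296.38, and M5 289.23, 251.40 and 200.35. Con was the lowest group, with Con-3 above the lowest M5 library.

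**Figure D1:**
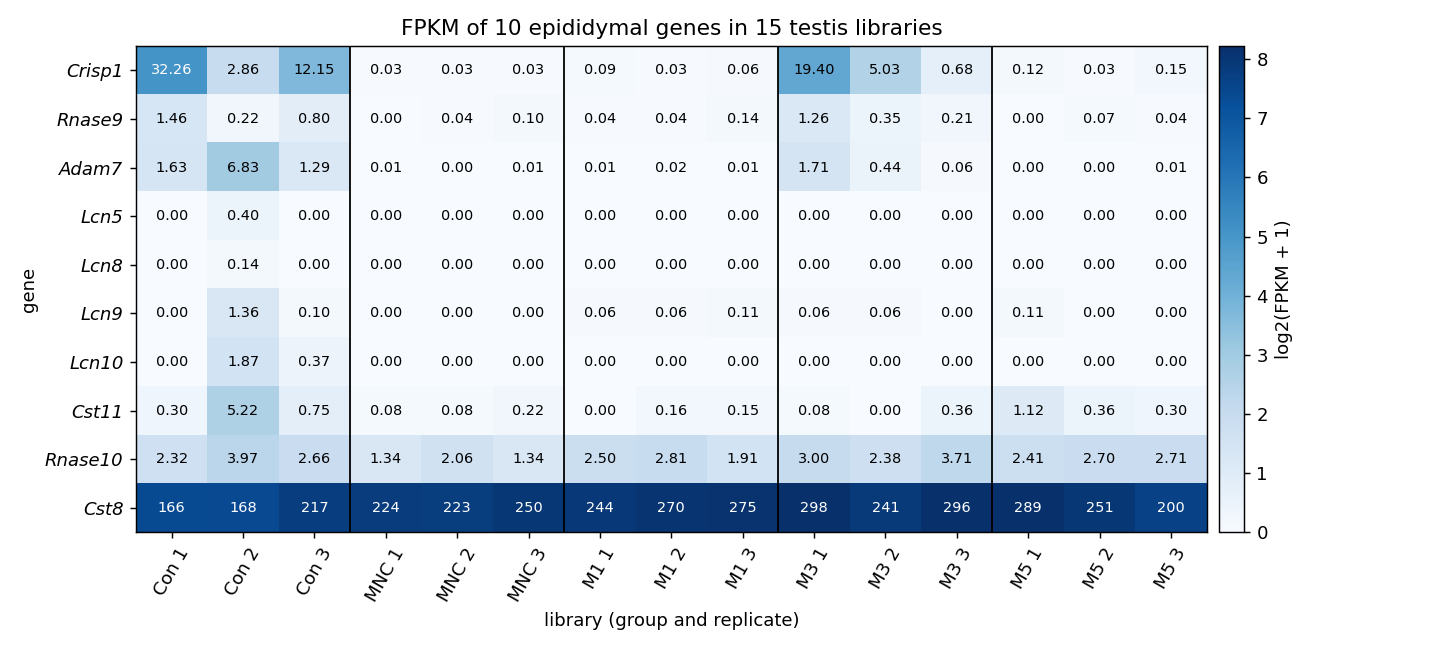
FPKM of the 10 genes (rows) in the 15 libraries (columns, grouped), with colour for log2(FPKM + 1) and the FPKM printed in each cell. Crisp1, Rnase9 and Adam7 are above 0.05 FPKM in all 6 Con and M3 libraries, the lipocalins and Cst11 are highest in Con-2, and Rnase10 and Cst8 fill all columns.

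Levels of Crisp1 were compared with those of the other 9 genes within the 6 Con and M3 libraries, since the 15 libraries fall into 2 clusters for Crisp1. Rnase9 put the 6 libraries in the same order as Crisp1 (Spearman's rho = 1, exact permutation p = 0.00278, two-sided, the smallest that 6 libraries allow; Pearson's r = 0.955 on the log2(FPKM + 1) scale, exact permutation p = 0.00417). Without the 2 libraries farthest from the median of Crisp1, r was 0.991 over 4 libraries. The rho of 1 rests on a gap in the last decimal given, since Rnase9 was at 0.22 FPKM in Con-2 and 0.21 in M3-3. The p-values were not adjusted for the 9 relations computed. Libraries of 2 groups enter, and within each group of 3 Rnase9 again had the order of Crisp1. For Adam7, r was 0.204 (exact permutation p = 0.711) and rho 0.371 (exact permutation p = 0.497). For Lcn5, Lcn8, Lcn9, Lcn10 and Cst11, r lay between -0.342 and -0.287 (exact permutation p of 0.562 to 0.667, n = 6). For Rnase10, r was -0.712 (exact permutation p = 0.122, n = 6), and for Cst8 it was -0.297 (exact permutation p = 0.549, n = 6). Over all 15 libraries, the set first planned, r was 0.970 for Rnase9, 0.693 for Adam7 and between -0.344 and 0.289 for the others. These values include the gap between the 2 clusters.

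Within Con alone, Crisp1 and Rnase9 fell in the order Con-1, Con-3, Con-2, while the 4 lipocalins, Cst11, Adam7 and Rnase10 were all highest in Con-2. Within M3, Crisp1, Rnase9 and Adam7 were all highest in M3-1 and lowest in M3-3. With 3 libraries a group these orders are descriptions.

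**Figure D2:**
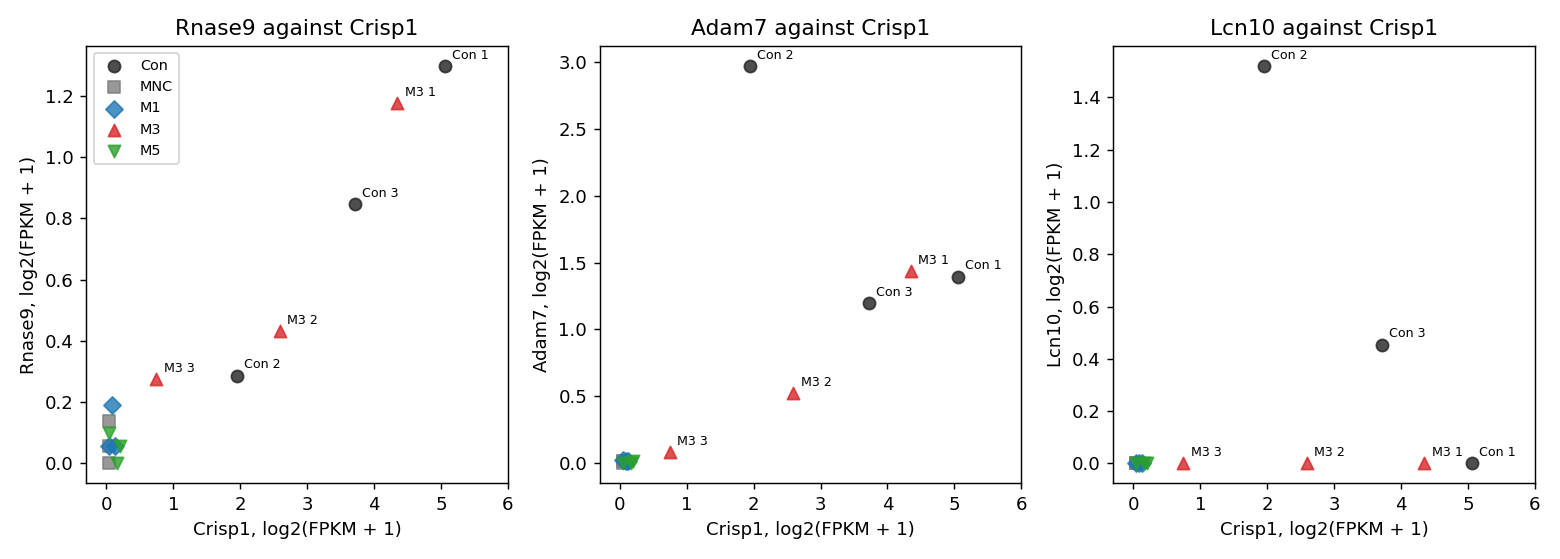
Rnase9, Adam7 and Lcn10 against Crisp1, each as log2(FPKM + 1), with 1 point per library and the Con and M3 libraries named. Rnase9 rises with Crisp1 over the 6 named libraries (r = 0.955), Adam7 does so apart from Con-2, at 6.83 FPKM, and Lcn10 is above 0 only in Con-2 and Con-3; the MNC, M1 and M5 points lie at the lower left.

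MNC was compared with Con, the control for which the labels name no agent and do not say whether it was injected. Crisp1 fell by 3.53 on the log2(FPKM + 1) scale (SE 0.72, 95% CI -5.27 to -1.79), from 15.8 ± 15.03 FPKM (SD, n = 3) to 0.03 FPKM in each library (limma, adjusted p = 0.0277). With a pseudocount of 0.1 in place of 1 the difference was -6.34. Crisp1 was the only member called of the 3 that passed the filter of a mean of 1 FPKM, at a background of 20.4% of 14514 genes called, and it passed the filter only through Con and M3. Rnase10 was lower by 0.62 (limma, adjusted p = 0.0616) and Cst8 higher by 0.345 (limma, adjusted p = 0.0760), and neither was called. Without Con-3, Cst8 was called at 0.47 (limma, adjusted p = 0.0303). The call of Crisp1 was lost without Con-1, where the difference was -2.79 (limma, adjusted p = 0.0866), and without Con-3, at -3.46 (limma, adjusted p = 0.0664). It was lost also without MNC-2 (limma, adjusted p = 0.0717) and without MNC-3 (limma, adjusted p = 0.0636), with the difference unmoved at -3.53.

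Taking all 10 genes by the raw values, 6 had MNC and Con ranges that did not overlap: Crisp1, Rnase9, Adam7, Cst11 and Rnase10 with Con higher and Cst8 with Con lower. Over the 22960 IDs above 0 in any library, 35% had ranges that did not overlap. The count stayed at 6 without Con-2 and without Con-3, where the background was 41.3% and 45.2%, and was 8 without Con-1, against 40%. For the 7 members below the filter, 3 against 3 libraries allow no exact permutation p under 0.1. Adam7 (3.25 ± 3.10 against 0.007 ± 0.006 FPKM), Rnase9 (0.827 ± 0.620 against 0.047 ± 0.050) and Cst11 (2.09 ± 2.72 against 0.127 ± 0.081; SD, n = 3 each, Con first) each reached that p of 0.1 in the exact permutation test. Lcn9 and Lcn10 reached an exact permutation p of 0.4 (n = 3 each), with Con-1 listed at 0 like all MNC libraries.

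The knockdown groups were compared with MNC to ask what the receptor shRNAs changed, and the 3 comparisons share the MNC libraries. Against MNC, Crisp1 in M3 was higher by 2.52 (95% CI 0.56 to 4.48), a difference with an unadjusted p of 0.0194 in limma and an adjusted p of 0.518. In M1 it differed from MNC by 0.04 (95% CI -0.15 to 0.24; limma, adjusted p = 0.944) and in M5 by 0.09 (95% CI -0.16 to 0.35; limma, adjusted p = 0.628). limma called 0 of the 3 members tested in each of the 3 comparisons, at backgrounds of 0% for M1, 0.00689% (1 gene) for M3 and 5.65% for M5. At an unadjusted p under 0.05 in limma there were 2 of the 3 members for M1 (Cst8 and Rnase10), 3 for M3 and 1 for M5 (Rnase10), beside 862, 1369 and 3620 of the 14514 genes in M1, M3 and M5.

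Rnase10 was higher than in MNC by 0.40 in M1 (limma, adjusted p = 0.819), by 0.64 in M3 (limma, adjusted p = 0.518) and by 0.49 in M5 (limma, adjusted p = 0.0947). Its M3 and M5 ranges lay wholly above that of MNC. Cst8 differed from MNC by 0.18 in M1, 0.26 in M3 and 0.07 in M5, with limma adjusted p-values of 0.819, 0.518 and 0.778. By raw values, 4 of the 10 genes lay wholly higher in M3 than in MNC (Crisp1, Adam7, Rnase9 and Rnase10), against 14.6% of all IDs in either direction. In M1 this held for Lcn9 alone, at 0.06 to 0.11 FPKM against values listed at 0 (background 10.5%), and in M5 for Cst11 and Rnase10 (background 24.4%).

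Against Con, the 3 knockdown groups share the Con libraries with each other and with the MNC comparison. Crisp1 fell by 3.49 in M1 (SE 0.71; limma, adjusted p = 0.0166) and by 3.44 in M5 (SE 0.70; limma, adjusted p = 0.0194). Here too Crisp1 passed the filter only through Con and M3, so these calls concern a gene that was tested because those groups were high. In M3, at 8.37 ± 9.80 FPKM (SD, n = 3), it differed from Con by -1.01 with a 95% CI of -3.55 to 1.53 (limma, adjusted p = 0.486). That difference was -0.10 without M3-3, -0.27 without Con-1, -1.90 without M3-1 and -1.82 without Con-2, and was called in none of these fits. Without M1-1 the adjusted p of M1 was 0.0521 in limma, and without M5-2 or Con-3 that of M5 was 0.0663 or 0.0617.

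Cst8 rose by 0.52 in M1 (SE 0.11; limma, adjusted p = 0.0189) and by 0.60 in M3 (SE 0.13; limma, adjusted p = 0.0322), while the difference of 0.42 in M5 was not called (limma, adjusted p = 0.110). The median over all genes tested was -0.115 in M1 and -0.129 in M3 against Con, so that Cst8 moved against that shift. Its call in M1 was lost in turn without M1-3, Con-1 and Con-2 (limma, adjusted p of 0.0562, 0.0634 and 0.0527). Its call in M3 was lost without M3-1, M3-3, Con-1 and Con-2 (limma, adjusted p of 0.0830, 0.0593, 0.117 and 0.0957). Without M5-3 Cst8 was called in M5 at 0.56 (limma, adjusted p = 0.0284). Rnase10 was not called in any knockdown group against Con, with differences of -0.21, 0.03 and -0.12 in M1, M3 and M5.

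Of the 3 members tested, limma thus called 2 in M1 (background 34.2%), 1 in M3 (22.1%) and 1 in M5 (21.7%) against Con. The counts for M1 and M5 include Crisp1, which passed the filter only through Con and M3. Ranges that did not overlap with Con were counted for 5 of the 10 genes in M1 (background 39.6%), for Cst8 alone in M3 (37%) and for Crisp1, Adam7 and Rnase9 in M5 (33%). Without Con-1 the M3 count was 4 (Cst8, Cst11, Lcn9 and Lcn10), against 41.8% of all IDs. It was 2 without M3-1 and 2 without M3-3, against 43.3% and 46.9% of all IDs.

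**Figure D3:**
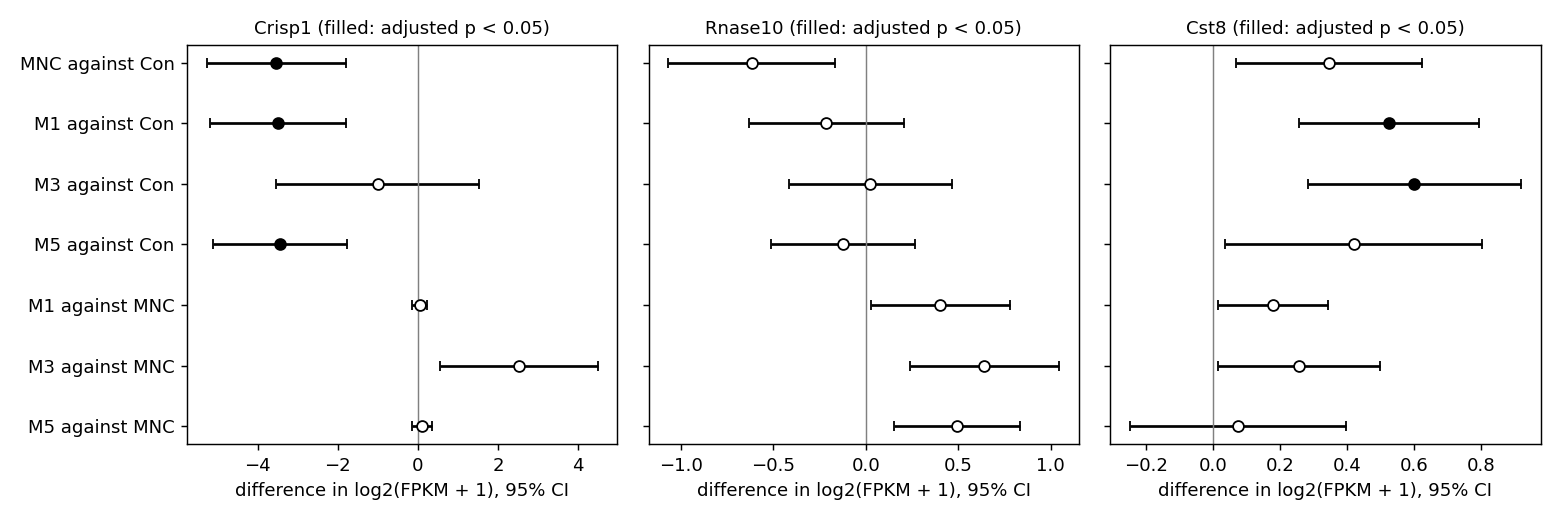
Differences in log2(FPKM + 1) with 95% confidence intervals from limma for Crisp1, Rnase10 and Cst8, the members that passed the filter, in 7 comparisons of 3 against 3 libraries. Crisp1 passed the filter only through Con and M3. Filled points passed an adjusted p of 0.05: Crisp1 in MNC, M1 and M5 against Con, and Cst8 in M1 and M3 against Con; the horizontal axes differ between panels.

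The knockdown effects were also set against each other directly, which removes MNC. Crisp1 was lower in M1 than in M3 by 2.48 on the log2 scale (95% CI -4.44 to -0.53; limma, adjusted p = 0.899) and differed by -2.43 between M5 and M3 (95% CI -4.34 to -0.52; limma, adjusted p = 0.338). Between M5 and M1 it differed by 0.05 (95% CI -0.18 to 0.28; limma, adjusted p = 0.773). limma called 0 members in each, at backgrounds of 0% for M1 against M3 (672 genes at an unadjusted p under 0.05), 6.75% where M5 was compared with M1 and 0.0138% where M5 was compared with M3. Crisp1 had an unadjusted p of 0.0204 and 0.0201 in limma in the comparisons of M1 and M5 with M3.

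Some genes of a wider list of 32 known from the epididymis showed the same 2 orders. Others did not, among them Cst12, Cst13, Cd52, Ros1 and Rnase13, whose highest values lay outside Con. Gpx5, a secreted glutathione peroxidase of the caput, was at 0.27, 43.33 and 4.64 FPKM in Con-1, Con-2 and Con-3 and at 0.02 to 0.31 FPKM in the other 12 libraries. Spag11b, a defensin-like gene, was at 0.07, 27.17 and 3.41 FPKM in Con and listed at 0 elsewhere. Con-2 was the highest library for both and Con-3 came next, as for Lcn10. For Cst11 this held within Con only, since M5-1 lay above Con-3.

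Beta-defensin genes were divided. Of the 10 on the list, 6 were highest in Con-2, of which 3 are given here. Defb18 was at 12.56 FPKM, Defb47 at 11.03 and Defb20 at 8.88 in Con-2, against 0.47, 2.76 and 1.16 in Con-3 and 0, 0.10 and 0 in Con-1. Others did not share that order: Defb30 was at 2.49 to 2.88 FPKM in Con and 2.93 to 5.60 in MNC, Defb45 at 7.22 to 10.20 in Con and 10.36 to 12.18 in MNC, and Defb21 was highest in M5-2 and Defb15 in M1-2. Lcn6, a further lipocalin of the chromosome 2 cluster, was at 2.35 FPKM in Con-2 and 0.35 in Con-3 and was listed at 0 in the other libraries.

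The order of Crisp1 appeared in fewer of the 32. Rnase12 was at 1.45, 0.18 and 1.19 FPKM in Con and 1.06, 0.34 and 0 in M3, and at most 0.18 in the other groups. Serpina1f, a serpin family gene, was at 0.96, 0.20 and 0.53 FPKM in Con and 0.75, 0.22 and 0.21 in M3, and at 0.13 to 0.29 in the other groups. Their rho with Crisp1 over the 6 Con and M3 libraries was 0.943 in both cases, given as a description of genes picked for their likeness.

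Of the members and the wider list together, 39 genes had 1 library with the highest value. For 22 of them it was Con-2, the highest library of 13.65% of all IDs, and for 7 it was Con-1, the highest of 8.75%. The 7 were Crisp1, Rnase9, Rnase11, Rnase12, Serpina1f, Bsph2 and Teddm3. Con-3 was the highest library of none, and M3-1 of Cst8 alone. The count sets no floor, and some highest values were near 0. Examples are Ovch2 at 0.04 and Defb12 at 0.09 FPKM in Con-2, and Teddm3 at 0.06 FPKM in Con-1.

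**Figure D4:**
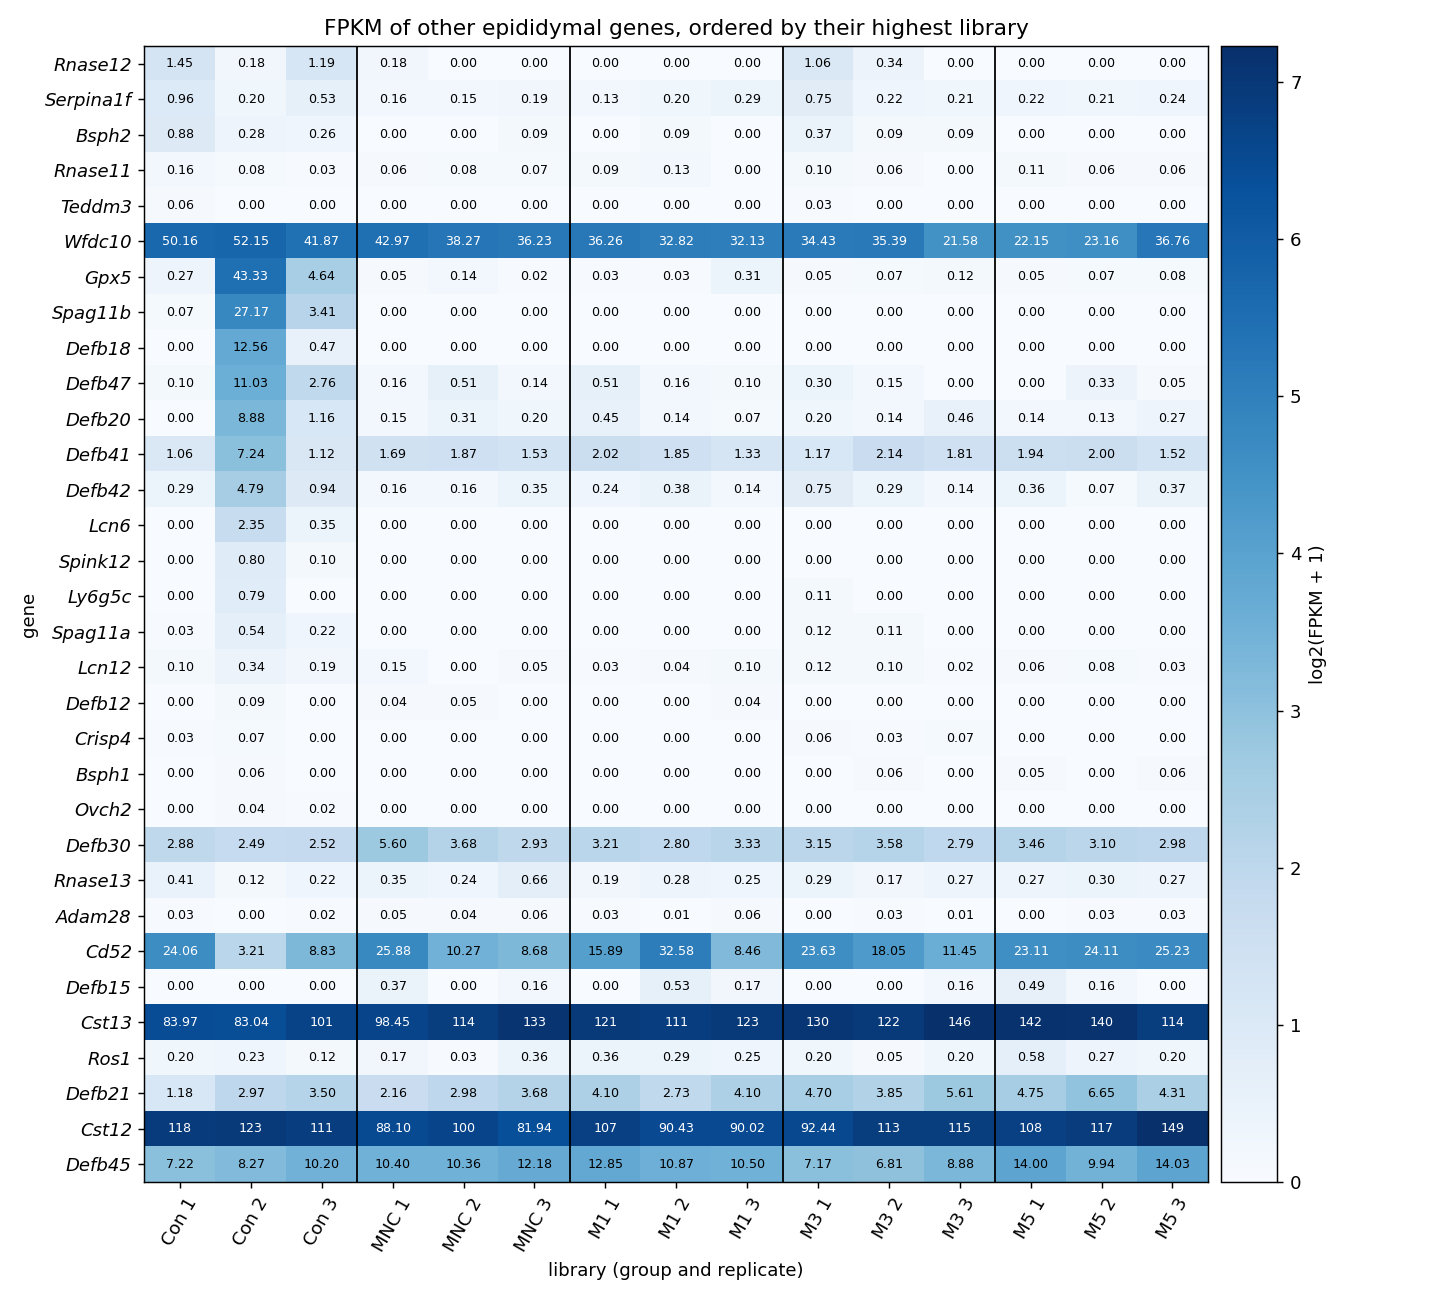
FPKM of the 32 other epididymal genes (rows) in the 15 libraries (columns), with rows ordered by the library of their highest value and colour for log2(FPKM + 1). Rows from Rnase12 to Teddm3 are highest in Con-1, those from Wfdc10 to Ovch2 mostly in Con-2 with Gpx5 at 43.33 FPKM, and Cst12, Cst13, Wfdc10 and Cd52 are present in all libraries.

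Of these 32 genes, 11 passed the filter, 3 of them (Gpx5, Spag11b and Defb47) only through Con, so no median over the 11 is given. limma called 1 in MNC against Con (Cst12, lower by 0.38, adjusted p = 0.0307). Against MNC limma called 0 of the 11 in M1, M3 and M5, with 1, 2 and 3 of them at an unadjusted p under 0.05. Against Con it called 3 in M1 (1 higher and 2 lower), 1 in M3 (Cst13, higher by 0.57, limma adjusted p = 0.0279) and 2 in M5 (Cst13 higher, and Wfdc10 lower by 0.82, limma adjusted p = 0.0297). Cst12 and Cst13, cystatin relatives of Cst8, were at 81.9 to 149 FPKM and 83.0 to 146 FPKM over all libraries, and Wfdc10 at 21.6 to 52.2 FPKM. All 3 genes were abundant in every library, Wfdc10 with its highest value in Con-2.

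Summed over genes that mark cell types of the epididymal epithelium rather than its secretions, the level did not divide the libraries in this way. Of the 13 listed, 7 passed the filter, and the summed level of all 13 was 59.7 to 60.4 FPKM in Con, 52.3 to 57.1 in MNC, 54.0 to 55.0 in M1, 54.4 to 57.1 in M3 and 45.1 to 53.1 in M5. Aqp9, a water and glycerol channel, made up 21.1 to 36.7 FPKM of it and Cftr 8.23 to 11.9. Both were abundant in every library, so the sum cannot show changes of the low genes. Krt5, a basal cell keratin, was at 0.02 to 0.06 FPKM in Con and listed at 0 in all others but M1-2, at 0.02, and Foxi1, which marks clear cells, was at 0 to 0.11 FPKM. Pax8, a transcription factor of the duct epithelium, was at 0.48, 0.17 and 0.23 FPKM in Con and 0.21, 0.14 and 0.03 in M3. It was at 0.04 to 0.25 FPKM in the other groups. Within Con and within M3, Pax8 had the order of Crisp1, but M5-3, at 0.25 FPKM, lay above Con-2 and Con-3. limma called 0 of the 7 in MNC against Con, where Aqp9 had an unadjusted p of 0.0126, and 0 against MNC, also at an unadjusted p under 0.05. Against Con it called 2 in M1, 2 in M3 (Atp6v1b1, a proton pump subunit, higher by 0.50, adjusted p = 0.0272, and Aqp9 lower) and 1 in M5 (Aqp9, lower by 0.46, limma adjusted p = 0.0348).

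Markers of other tissue that can lie beside a testis were read in the same libraries. Adipocyte genes summed to 45.2, 29.9 and 13.0 FPKM in Con-1, Con-2 and Con-3 and to 20.1 to 52.0 in MNC. In M3-1, M3-2 and M3-3 the sums were 13.5, 14.6 and 19.9 FPKM. limma called 0 of 5 adipocyte genes tested in MNC against Con (Adipoq had an unadjusted p of 0.0185). Adipoq was called against Con in M1 (higher by 0.325; limma, adjusted p = 0.0297) and in M5 (higher by 0.67; limma, adjusted p = 0.0103). Genes of the accessory glands summed to 2.15 to 6.52 FPKM over all libraries, with Svs5 at 1.33 to 5.69 and Svs4 at 0.09 to 1.24, and the highest sum was in MNC-1. Svs5, the 1 gene tested, was called in no comparison, with a lowest unadjusted p of 0.151 in limma.

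Smooth muscle genes, which wrap the duct and the testis alike, gave 2 of 7 lower in MNC than in Con by limma, among them Acta2, lower by 0.47 (adjusted p = 0.0171). Acta2 was at 23.8 to 26.2 FPKM in Con, 17.1 to 18.7 in MNC and 13.8 to 16.2 in M3, where it was lower than in Con by 0.69 (limma, adjusted p = 0.0238). On average Acta2 was lowest in M3 of the 5 groups. The summed list was 162 to 194 FPKM in Con and 183 to 210 in MNC, since Actg2, the most abundant gene of the list, stood lower in Con. Also by rule, Cnn1 fell by 0.66 and Actg2 rose by 0.44 in M1, and Smtn and Myh11 fell by 0.55 and 0.48 in M3, each against Con.

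The summed level of 12 spermatid genes was lowest in Con. It was 15918 to 26883 FPKM in Con, lowest in Con-2, and 27319 to 37192 FPKM in the other 12 libraries, M3 included. limma called 4 of 12 higher in MNC than in Con, 8 higher in M1, 7 higher in M3 and 5 higher with 1 lower in M5. The lower gene was Ldhc, a lactate dehydrogenase of germ cells, at 2888 to 2920 FPKM in Con and 1959 to 2263 in M5 (lower by 0.44; limma, adjusted p = 0.0192), and Tnp2 was not called in any group against Con. Of the genes named by rule, Smcp, a sperm mitochondrial capsule gene, rose by 1.22 in M1 (limma, adjusted p = 0.00872) and Prm2, a protamine, by 1.47 in M5 against Con (limma, adjusted p = 0.0234). Odf1, of the sperm tail, and Gapdhs, a sperm glycolytic enzyme, rose by 1.04 and 0.82 in M1 against Con, and Tnp2 fell by 0.71 in M5 against M1. Cst8, which germ cells express, was on average lowest in the same group. Of 7 somatic genes of the testis, limma called 1 lower in MNC, 3 lower in M1, 3 lower in M3 (among them Cyp17a1, a steroid enzyme of Leydig cells, by 1.40, adjusted p = 0.0480) and 0 in M5 against Con, also at an unadjusted p under 0.05. Amhr2 and Sox9, of Sertoli cells, fell by 0.50 and 0.37 in M3.

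Blood and immune genes had an order of their own. Red blood cell genes summed to 33.7 to 69.8 FPKM in Con, 21.8 to 35.3 in MNC, 23.3 to 98.9 in M3 and 148 to 491 in M5, where limma called 3 of 5 higher than in MNC. Against Con in M5, the globin genes Hbb-bs, Hbb-bt and Hba-a2 rose by 5.87, 3.60 and 1.91, and Hba-a1 rose by 3.17 against MNC. Hba-a1 was not called in M5 against Con (higher by 1.72; limma, adjusted p = 0.0746). In MNC against Con it was called lower, by 1.45 (limma, adjusted p = 0.0251). Hbb-bs was higher there by 1.72 and not called (limma, adjusted p = 0.120). In Con, Hba-a1 was at 26.61 to 59.96 FPKM, Hbb-bs at 0 to 0.09 and Hbb-bt was listed at 0. The globin genes did not all order Con and MNC alike, so their sums and differences are not read as amounts of blood. Leukocyte genes summed to 14.2 to 14.9 FPKM in Con, 18.8 to 32.0 in MNC, 9.95 to 14.4 in M3 and 23.0 to 39.2 in M5, and in MNC against Con 1 of 5 was called higher. Ptprc, Cd68 and Adgre1 rose by 1.67, 0.90 and 0.53 in M5 against Con, Csf1r fell by 0.45 in M3 against Con, and Cd5l rose by 2.26 in M5 against M3. Among 18 relatives of the members by family, 7 passed the filter and 1 was called lower in MNC than in Con (Cst12), with Crisp2 at 1141 to 1835 FPKM over all libraries, higher by 0.46 in M5 than in Con (limma, adjusted p = 0.0350), and Crisp4 at 0 to 0.07.

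**Figure D5:**
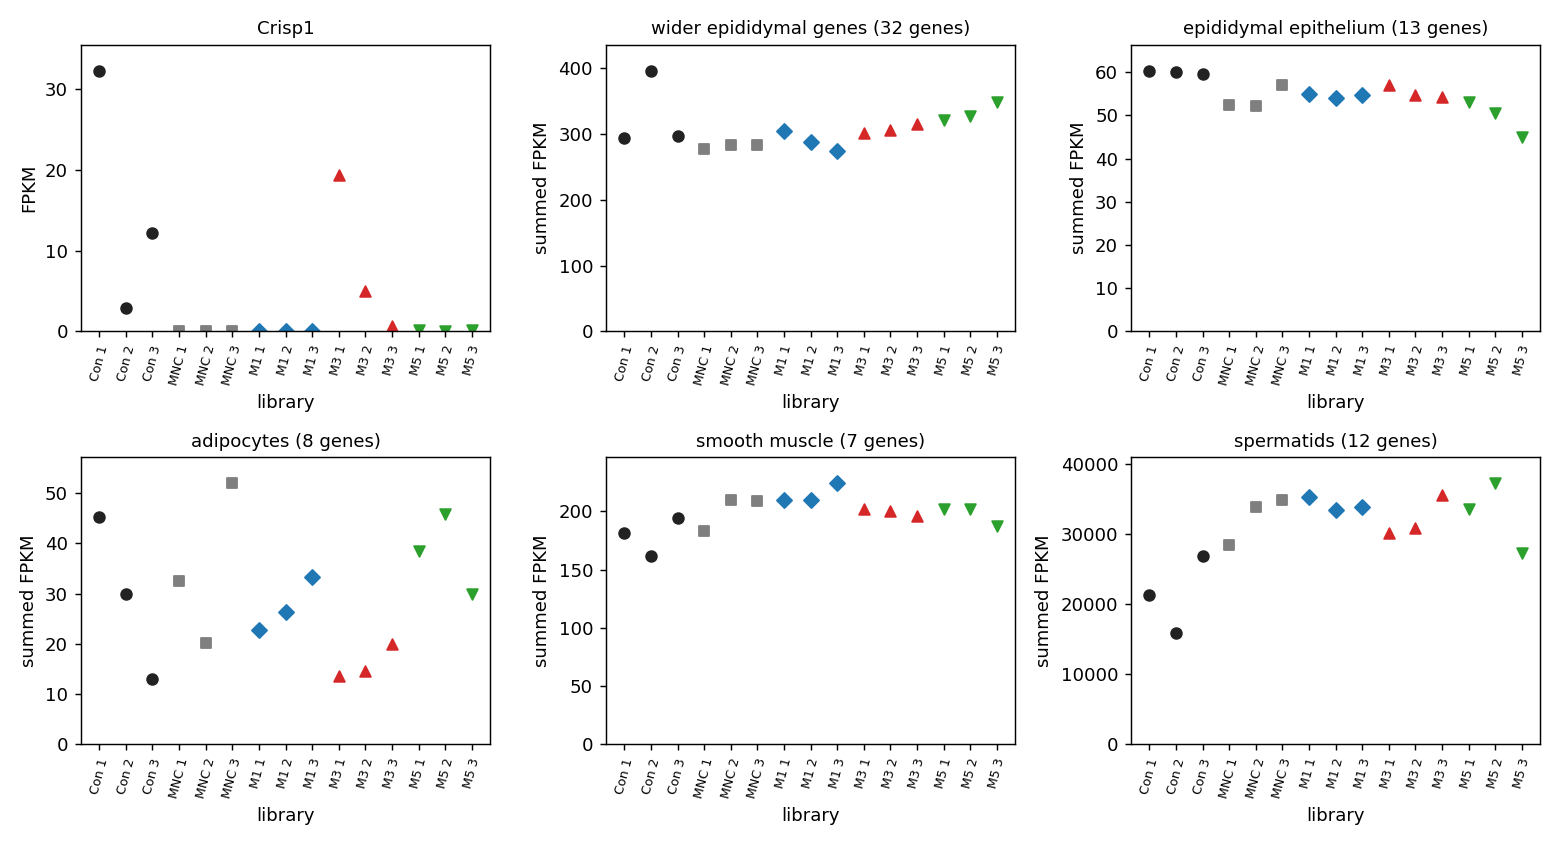
Crisp1 (FPKM) and the summed FPKM of 5 gene lists in each of the 15 libraries, with groups told apart by colour and marker shape and every vertical axis starting at 0. Crisp1 reaches 32.26 FPKM in Con-1 and is near 0 in MNC, M1 and M5, the wider epididymal sum peaks at 396 FPKM in Con-2, and the spermatid sum is lowest in the 3 Con libraries.

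Side by side, Crisp1, Rnase9 and Adam7 were present in Con and M3 and at or near 0 in MNC, M1 and M5. The gap was smallest in M3-3, where they were at 0.68, 0.21 and 0.06 FPKM. Their highest values in MNC, M1 and M5 were 0.15, 0.14 and 0.02 FPKM. None of the marker sums of epididymal epithelium, adipocytes, accessory glands, smooth muscle, blood or spermatids set Con and M3 apart in that way. These sums follow their most abundant genes, such as Aqp9, Svs5 and Actg2, and cannot show a pattern of the lower ones. The leukocyte sum came closest, though it was lower where Crisp1 was higher. It was at 9.95 to 14.9 FPKM in the 6 Con and M3 libraries and 14.3 to 39.2 in the other 9. Its genes did not all group M3 with Con. Ptprc was at 0.51 to 0.76 FPKM in Con, 1.34 to 2.16 in M3 and 1.20 to 5.16 in the other 9. Cd5l was at 0.63 to 3.67 FPKM in Con and 0.06 to 0.20 in M3. Rnase9, Rnase12 and Serpina1f had the order of Crisp1 within Con and within M3, the last 2 picked for their likeness. Serpina1f in Con-2, M3-2 and M3-3, at 0.20, 0.22 and 0.21 FPKM, lay within its range in the other groups. Rnase12 was at 0.18 FPKM in Con-2, as in MNC-1, and listed at 0 in M3-3. The 4 lipocalins, Gpx5 and Spag11b were at most 0.12 FPKM in M3. Whether epididymal tissue or RNA entered these libraries, and its part in the difference of Crisp1 between groups, was not tested. The labels and methods do not record how the testis was separated from the epididymis, and a difference in dissection between groups cannot be told apart from the treatment in this design.

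The genes most like each member over the 15 libraries were taken from the 13613 named genes with a mean of 1 FPKM or more, by Pearson's r of log2(FPKM + 1). For Crisp1 they were AY761185 (0.989), Cuzd1 (0.953), Spink8 (0.891), Gm21477 (0.880) and Vamp3 (0.878). AY761185 was at 8.33, 1.23 and 5.96 FPKM in Con, 4.49, 1.69 and 0.29 in M3 and at most 0.11 elsewhere, which is the order of Crisp1 with Con-3 and M3-1 exchanged. For Cst8 they were Ppm1a (0.935), Amz2 (0.924), Oser1 (0.914), Spata19 (0.907) and Fscb (0.906). For Rnase10 they were Ccdc122 (0.864), Vdac2 (0.853), Krr1 (0.836), Clcn3 (0.828) and Clhc1 (0.820). For the sum of the 8 members other than Crisp1 and Cst8, they were Cd209c (0.901), Nedd1 (0.882), Ccdc93 (0.874), Rad18 (0.873) and Hadha (0.862). These correlations describe 15 libraries that share 5 groups.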

How the data were processed

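RNA was sequenced in 15 testis libraries, 3 in each of 5 groups, and grouped by the sample titles. The description of M5-2 names the column of M5-1, and it was mapped by its title. Per the study's methods, poly(A) RNA was read on an Illumina HiSeq and mapped with SOAPaligner, and the authors deposited 1 table of FPKM values with 2 decimals for 23510 gene IDs. The submitters' processing notes name mm10, and counting by strand was not given in the sources used here. Of the IDs, 21143 (89.9%) matched RefSeq genes of GRCm38.p6. Summed FPKM was 470243 to 513817 per library. Counts were not used here, so depth and counting intervals are unknown.

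Values were analysed as log2(FPKM + 1), which understates changes of low genes, for the 14514 genes whose mean FPKM reached 1. The study's test models counts, so limma 3.58.1 (R 4.3.3; lmFit, then eBayes with a trend) took its place, with the 2 groups compared in each fit, no covariate, Benjamini-Hochberg adjustment over all genes tested and a threshold of 0.05. The fit was tested on simulated data. The 7 members below the filter were compared by two-sided exact permutation tests. Ranges and orders are descriptions. Alternatives were a pseudocount of 0.1, filters of 0.1, 5 and none, quantile normalization, median centring, no trend in eBayes, all 5 groups in a fit, the replicate number as a block and leaving out each library. Non-overlap counts without single libraries were added after seeing the data. Same-numbered libraries did not deviate together (correlations of -0.399 to 0.193), so numbers were not taken as pairs.

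The members and gene lists were chosen with earlier results of these data known. By rule, every member was given in each library where its mean was 0.1 FPKM or more, up to 5 called genes by fold, or else the 2 of highest mean, were named from each list, and 5 genes were named for likeness. Gpx5, Spag11b, Defb18, Defb47, Defb20, Lcn6, Rnase12, Serpina1f, Defb15, Defb21, Defb30, Defb45, Ldhc, Krt5, Foxi1 and Pax8 were chosen after their values were seen. Python 3.11.15, pandas 2.3.3 and scipy 1.17.1 were used.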

Additional observations from a re-analysis of the deposited data

How the results depend on the processing

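In MNC against Con, the count of 1 member called was 0 with a filter of 5 FPKM, which removes Crisp1, 0 with no filter, 2 with all 5 groups in a fit (Rnase10 joining) and 0 with the replicate number as a block, and between 0 and 1 with single libraries left out. The difference of Crisp1 there, -3.53, lost its call with no filter (limma, adjusted p = 0.0590) and with the block (-3.53; limma, adjusted p = 0.0587), and ranged from -4.34 to -2.79 with single libraries left out. A pseudocount of 0.1 widened the difference of Crisp1 to -6.34 in MNC, -6.06 in M1 and -5.78 in M5 against Con and to 5.04 in M3 against MNC, on the same side of the threshold in each. In M1 against Con the count of 2 was 3 with a filter of 0.1 FPKM, 1 with a filter of 5 FPKM and 1 to 2 with libraries left out. In M3 against Con the count of 1 was 0 with no filter, 0 after quantile normalization, 0 with the block and 0 to 1 with libraries left out. In M5 against Con the count of 1 was 2 with a filter of 0.1 FPKM, 0 with a filter of 5, 0 with no filter, 2 with all 5 groups in a fit and 0 to 2 with libraries left out. The cause was not tested where none is given. Directions that reversed were all of differences not called: Crisp1 in M1 against MNC after quantile normalization (-0.085), Cst8 in M5 against MNC without M5-1 (-0.047; highest 0.217 with a library left out), Rnase10 in M3 against Con without M3-3 (-0.094), Con-1 (-0.095) or Con-3 (-0.025; highest 0.196), and Rnase10 in M5 against Con without Con-2 (0.048; lowest -0.243). The counts of all genes called by limma, against which the members were read, moved too. For MNC against Con the 2967 became 1740 with no filter, 1869 after median centring, 10 with the block and 8 to 2497 with a library left out. For M5 against MNC the 820 became 447 with no filter, 182 after median centring, 215 with no trend, 2424 with all 5 groups in a fit, 14 with the block and 35 to 946 with a library left out. For M1 against Con the 4969 became 3071 after median centring, 2906 with all 5 groups in a fit and 1259 to 4386 with a library left out, and for M3 against Con the 3210 became 1626 with no filter, 1847 after median centring, 1530 after quantile normalization, 0 with the block and 0 to 2695 with a library left out. For M5 against Con the 3143 became 573 with the block and 708 to 5263 with a library left out, and M1 and M3 against MNC stayed at 0 to 14 under every alternative. The numbers do not pair the libraries, so the block is given here only. The table keeps 2 decimals, so values under about 0.05 FPKM of a gene such as Crisp1 rest on a few fragments, and 3 libraries a group allow no exact permutation p under 0.1.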

Other observations

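By a rule set after the values were seen, 43 of 22960 IDs above 0 (0.187%) were under 1 FPKM in all 9 MNC, M1 and M5 libraries and reached 1 FPKM or more, and at least 10 times the highest of those 9 (taken as 0.1 FPKM where lower), in a Con or M3 library. The 36 named IDs among them held 5 of the 10 members (Crisp1, Rnase9, Adam7, Lcn9 and Lcn10) and 7 of the wider epididymal list. The rule uses the division of libraries already seen for Crisp1, Rnase9 and Adam7, so these counts are a description and test nothing about the members. Beta-defensins were 8 of the 32 Defb genes above 0, lipocalins 3 of 10 Lcn genes, Wfdc protease inhibitors 2 of 18 and Pate genes 2 of 12.

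Of the 36, 17 were highest in Con-1, 18 in Con-2 and 1 in M3-2. Defb28, at 5.09, 0.67 and 2.03 FPKM in Con and 3.74, 1.29 and 0 in M3, and Wfdc15b, at 4.75, 0.33 and 1.40 in Con and 2.38, 0.55 and 0.10 in M3, ranked these 6 libraries as Crisp1 did. Serpina16, a serpin family gene, stood at 4.24, 0.14 and 1.90 FPKM in Con and 3.00, 1.18 and 0.11 in M3.

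A group of neighbours on chromosome 11 met the same rule with an order unlike that of Crisp1. Trim25 was at 1.96, 2.36 and 2.05 FPKM in Con and 0.01, 1.43 and 0.14 in M3, and Scpep1 at 7.10, 8.25 and 6.37 in Con and 0.23, 5.06 and 0.67 in M3. Dgke and Gm525 followed them, and their neighbour Coil was at 51.2 to 56.9 FPKM in Con, 1.40, 47.58 and 4.73 in M3 and 0.23 to 1.06 in the other 9 libraries. Trim25, Scpep1, Dgke and Coil were similar across the Con libraries and highest among M3 in M3-2, while Crisp1 was uneven within Con and highest among M3 in M3-1.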
